A study of Mus musculus with 4 samples.

Results

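The chemokine and inflammatory cytokine genes described here are 10 of the 18695 genes in the count matrix: Ccl3, Ccl4, Ccl5, Ccl6, Ccl9, Cxcl2, Il1b, Tnf, Il6 and Xcl1. They were named as a group of secreted signals, with earlier results of these data known. Each was measured in 4 single-cell RNA libraries, as its part of all UMIs of a cell type on the common CPM scale, as the share of cells with at least 1 UMI, and as the share of its UMIs held by the cells with most of them. A UMI is a molecular tag that stands for 1 captured RNA molecule.

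The mice differed in Tet2, whose enzyme oxidises methylated cytosine in DNA. Tet2 KO mice carried Tet2 fl/fl and Mx1-Cre. The mice called WT also carried Tet2 fl/fl and were littermates negative for Mx1-Cre. All received pI:pC, in 4 doses of 12.5 µg/g, which induces interferon and with it the Mx1 promoter that drives Cre, in and outside the bone marrow. Mice of both sexes, matched for age at 8 to 12 weeks, were used. From bone marrow, GMP (granulocyte-monocyte progenitors, Lin- cKit+ Sca1- CD34+ CD16/32+) and Lin-/CD11b+ cells were sorted. There was 1 library per genotype and sort, and both sorts of a genotype carried the same mouse name, so genotype, mouse and library cannot be told apart. No test between genotypes was therefore made, and the intervals given in brackets, all 95%, cover counting error only.

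In the GMP sort, 1258 WT cells gave 22890469 UMIs and 2719 Tet2 KO cells 42561110. In the Lin-/CD11b+ sort, 1924 WT cells gave 22681380 and 3068 Tet2 KO cells 34024599. Median UMIs per cell were 18713 and 15488 in the GMP sort and 11091.5 and 10417 in the Lin-/CD11b+ sort, WT before Tet2 KO, as in every pair of values below. WT cells were the deeper ones in each sort as a whole, but not in every type. Tet2 KO was the deeper in basophil-like cells from the GMP sort (11090.5 and 11575) and, from Lin-/CD11b+, in Clec4a-high (6500 and 7233) and Clec4a-low monocyte-like cells (10330 and 11376), pDC-like (7648 and 8576), DC-like (5755 and 6924), B-like (7169.5 and 8142.5), basophil-like (7768 and 8300), neutrophil-like (8877.5 and 8956) and mono-biased GMP-like cells (13856.5 and 14004), and also in the ungated cells of each sort. Of 8969 cells, 74 carried a barcode also present in another library (37 barcodes), and no barcode was in more than 2 libraries. Tet2 itself gave 298 and 723 UMIs in the GMP libraries (13.02 and 16.99 CPM) and 304 and 703 in the Lin-/CD11b+ libraries (13.4 and 20.7 CPM). These UMIs come from the 3′ end of the transcript, outside the deleted part, and do not check the genotype.

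Cell types came from gates on summed marker UMIs, and each name ends in "-like" for that reason. The types were HSPC (stem and early progenitor), neutro-biased GMP, mono-biased GMP, neutrophil, monocytes low or high in Clec4a genes, DC, pDC, basophil, T/NK, B and plasma cells. Genes not used in the gates checked the names in the Lin-/CD11b+ libraries: Ly6g stood at 618 and 435 CPM in neutrophil-like cells, and Igkc at 447744 and 393639 CPM in plasma-like cells. In the Tet2 KO library Ly6c2 stood at 3241 CPM in mono-biased GMP-like cells. Ly6c2 was also found in other gates described below, so it does not set that type apart. The share of cells outside every gate was 4.13% and 9.60% in the GMP libraries and 12.9% and 14.3% in the Lin-/CD11b+ libraries. Raised gate thresholds changed the type of 856 cells (9.54%), lowered ones of 613 (6.83%). Among 7970 gated cells, 6469 (81.2%) were in a Leiden cluster of the same name. Doublets were not removed: Scrublet called under 0.5% of cells, and 50 cells met the gates of more than 1 lineage, 13 in WT and 37 in Tet2 KO Lin-/CD11b+.

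RNA free in the droplets was also measurable. Igkc, an antibody light chain of plasma cells, had a UMI in 98.0% and 96.9% of cells of the Lin-/CD11b+ libraries and in 0.874% and 0.368% of cells of the GMP libraries. The T/NK-like gate needs care as well: 96 T/NK-like cells shared a cluster with 154 Clec4a-high monocyte-like cells, and 11 of the 88 in the Tet2 KO library met another lineage's gate. With 19 T/NK-like cells in WT, that type was described but not compared.

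Chemokines are small secreted proteins that draw leukocytes along a gradient through G protein-coupled receptors. Ccl3, Ccl5, Ccl6 and Ccl9 bind Ccr1, Cxcl2 binds Cxcr2 on neutrophils, and Xcl1 binds Xcr1 on cross-presenting dendritic cells. Il1b, Tnf and Il6 are cytokines that start and spread inflammation, and the transcription factors NF-kB, AP-1 and C/EBP are known regulators of many of these genes.

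Genotypes were compared in 13 pairs of a type and a sort with at least 50 cells in both libraries, 4 in the GMP sort and 9 in the Lin-/CD11b+ sort. A gene was called lower or higher in Tet2 KO when CPM plus 1 differed more than 1.5-fold, among genes with at least 20 UMIs over both libraries. A call is a description, not a test. Of 130 pairs of member and comparison, 77 reached 20 UMIs; 36 were lower, 9 higher and 32 neither. The other 53 pairs held too few UMIs.

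In HSPC-like cells from the GMP sort, 3 of the 3 members that passed the filter were lower and 0 higher, beside 12.5% of all genes lower and 5.61% higher. In that gate the neutro-biased GMP list summed to 9551 and 15374 CPM (7 and 8 of 8 genes found, Prtn3 and Mpo highest, Fcnb at 0 in WT), the monocyte list to 369 and 710 CPM (9 of 12 in each, Ly6c2 highest, Fn1, Clec4a1 and Clec4a3 at 0) and the stem and early progenitor list to 612 and 500 CPM (10 of 10 in each, Cd34 highest), and their part was not tested. Neutro-biased GMP-like cells of the GMP sort had 0 lower and 1 higher of 7, beside 3.06% and 2.21% of all genes. Mono-biased GMP-like cells had 4 lower (Ccl3, Ccl4, Ccl5 and Ccl9) and 0 higher of 7, beside 2.75% and 1.75%. The 7 neutrophil gate markers summed to 46.2 and 274 CPM there (6 and 5 found). In neutro-biased GMP-like cells they summed to 359 and 1447 CPM (7 found in each), and their part was not tested. For basophil-like cells the counts were 5 lower (Ccl3, Ccl4, Ccl9, Cxcl2 and Il6) and 0 higher of 6, beside 9.43% and 7.61%. Ccl3, Ccl4 and Ccl9 were thus lower in 3 of these 4 types, and Ccl5 was the member called higher in the remaining type.

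The Lin-/CD11b+ sort gave a more mixed picture in its progenitors. HSPC-like cells had 2 of 5 members that passed lower (Ccl3 and Ccl4) and 0 higher, beside 3.98% and 7.84% of all genes. The 3 dendritic cell gate markers summed to 92.0 and 347 CPM there, and their part was not tested. Neutro-biased GMP-like cells had 3 lower (Ccl4, Ccl6 and Ccl9) and 3 higher (Ccl3, Ccl5 and Tnf) of 6, beside 3.98% and 6.21%. Mono-biased GMP-like cells had 3 lower (Ccl3, Ccl9 and Tnf) and 1 higher (Ccl5) of 7, beside 3.05% and 5.02%. In neutro-biased GMP-like cells the members went both ways in equal number, and several of these calls rested on under 40 UMIs. The neutrophil list summed to 1695 and 5085 CPM in that gate and to 341 and 1029 CPM in the mono-biased one (11 of 11 genes found in each, S100a8 highest), and its part was not tested.

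Among the more mature types, neutrophil-like cells had 2 lower (Cxcl2 and Il1b) and 2 higher (Ccl5 and Ccl9) of 7 that passed, beside 4.1% and 20.7% of all genes. Clec4a-low monocyte-like cells had 4 lower (Ccl3, Ccl4, Ccl9 and Cxcl2) and 0 higher of 7, beside 5.03% and 6.11%. Clec4a-high monocyte-like cells had 4 lower (Ccl3 to Ccl6) and 0 higher of 6, beside 9.3% and 15.7%. In the monocyte gates Ccl3 and Ccl4 were thus called lower and no member higher. Neutrophil markers differed there too: the neutrophil list summed to 535 and 1918 CPM in the Clec4a-low gate (11 of 11 genes found in each) and to 1469 and 7571 CPM in the Clec4a-high gate (10 and 11 of 11, Cxcr2 at 0 in WT), S100a8 highest in all, and their part in the result was not tested. In the Clec4a-high gate the 3 dendritic cell gate markers summed to 27.6 and 190 CPM. The Clec4a1, Clec4a3 and Wfdc17 sum there was 1295 and 2186 CPM, and the part of these markers was not tested either. With both monocyte gates summed, 2 were lower (Ccl3 and Ccl4) and 0 higher of 7, beside 3.83% and 7.87%.

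The pDC-like cells had 2 lower (Ccl3 and Ccl4) and 0 higher of 6 that passed, beside 6.87% and 6.92% of all genes. Markers differed in that gate: the dendritic cell list summed to 616 and 1596 CPM (11 and 10 of 11 genes found, Itgb7 and Cd74 highest, Xcr1 at 0 in Tet2 KO), the monocyte list to 2908 and 4339 CPM (12 of 12 in each, Ly6c2 highest) and the pDC list to 4164 and 3278 CPM (9 and 8 of 9, Ly6d highest, Klk1 at 0 in Tet2 KO), and their part was not tested. Basophil-like cells had 3 lower (Ccl3, Ccl4 and Ccl9) and 0 higher of 5, beside 10.7% and 12.4%. Plasma-like cells had 1 lower (Ccl3) and 2 higher (Ccl5 and Xcl1) of 5, beside 5.4% and 16.9%. Ccl3 was the member called lower in most types. The median of all genes was near 0 in these comparisons but 0.26 log2 in neutrophil-like and 0.18 in plasma-like cells, so a modest rise there was the usual direction.

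**Figure D1:**
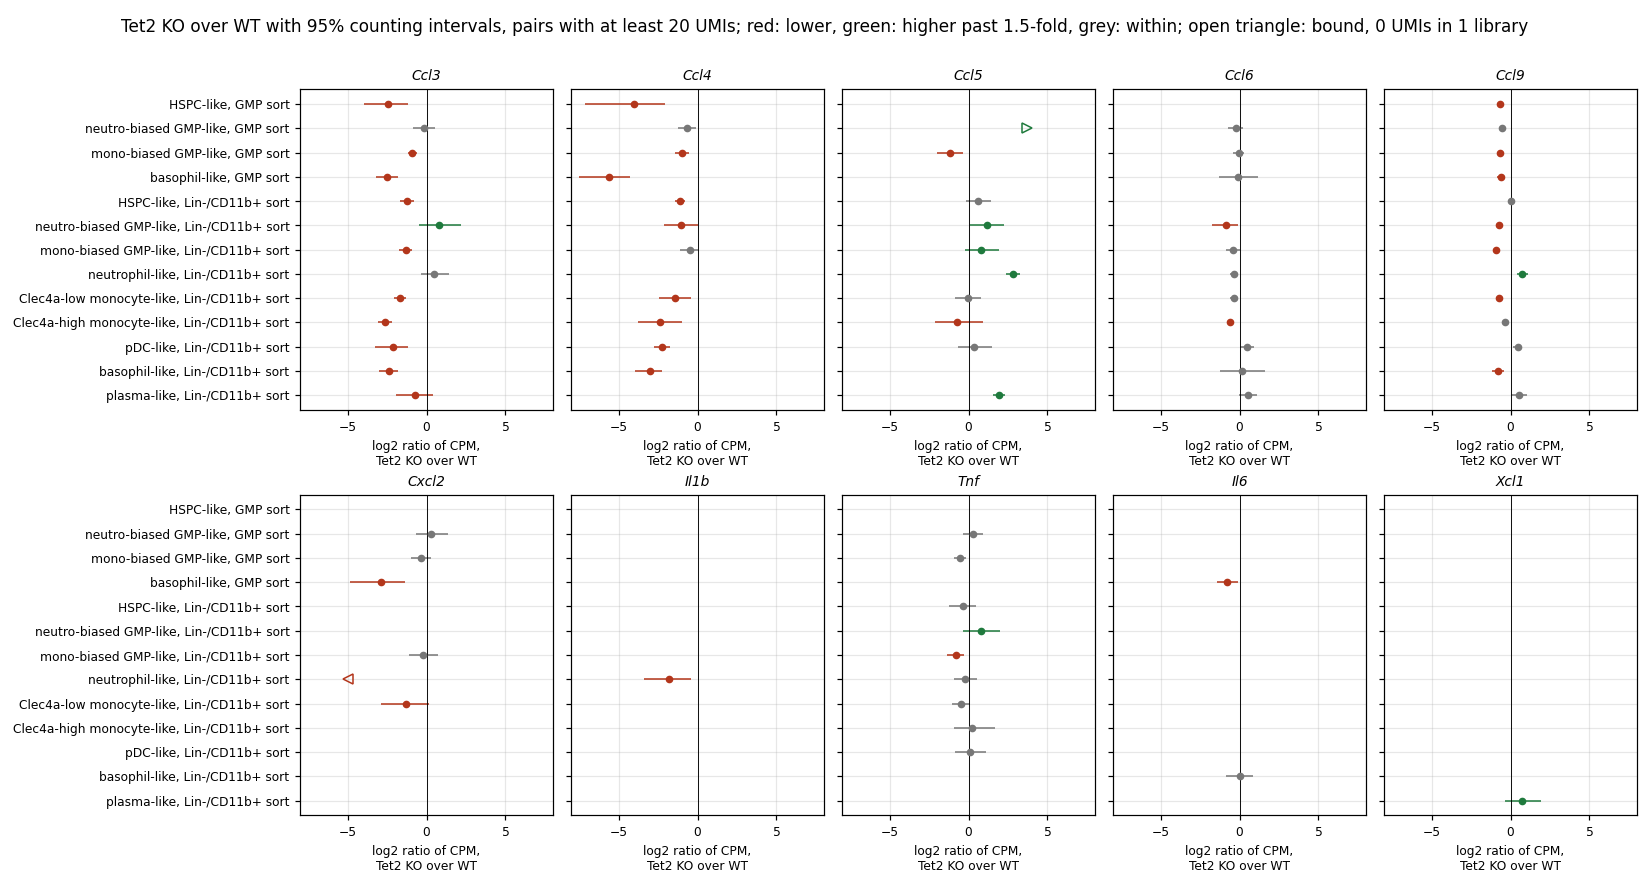
Log2 of Tet2 KO over WT CPM for each member (panels) in each cell type and sort with at least 20 UMIs over both libraries; bars are 95% counting intervals, red marks lower, green higher and grey neither, and open triangles are bounds against a count of 0. Ccl3 and Ccl4 lie left of 0 in most types, while Ccl5 lies on either side.

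Ccl3 and Ccl4 encode the paired chemokines MIP-1α and MIP-1β, made early by activated myeloid cells. They lie on chromosome 11, Ccl3 at 83647843-83649378 on the minus strand and Ccl4 at 83648624-83664683 on the plus strand. The annotated ranges share 755 bases. The methods give default parameters for Cell Ranger counting and do not name the strand, so UMIs from the shared bases are uncertain. Ccl3 was called lower in most comparisons, and its upstream sequence is shown for that reason. These 250 bases, chr11:83649379-83649628, minus strand, from RefSeq on GRCm38.p6, are written in lower case with motif matches in capitals:
Ccl3: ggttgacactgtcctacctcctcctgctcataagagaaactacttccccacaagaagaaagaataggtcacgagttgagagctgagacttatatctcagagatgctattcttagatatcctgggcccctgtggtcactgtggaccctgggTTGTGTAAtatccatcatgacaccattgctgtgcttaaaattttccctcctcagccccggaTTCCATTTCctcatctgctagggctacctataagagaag
The capitals mark a C/EBP match (TTNCNNAA) 100 to 93 bases before the start and an interferon-response match (GAAANNGAA) 39 to 31 bases before it, read on the opposite strand. No NF-kB, AP-1, PU.1 or TATA match was present.

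In the GMP sort, Ccl3 stood at 27.7 and 5.14 CPM in HSPC-like cells (37 and 6 UMIs), 20.2 and 10.8 in mono-biased GMP-like cells (200 and 213 UMIs), 85.2 and 15.3 in basophil-like cells (103 and 21 UMIs) and 3.47 and 3.096 in neutro-biased GMP-like cells (32 and 48 UMIs). Basophil-like cells were highest in WT, where HSPC-like and mono-biased GMP-like cells did not differ beyond counting error; in Tet2 KO no neighbours in the order differed. The log2 ratios were −2.43 [−3.96, −1.17], −0.90 [−1.19, −0.62], −2.48 [−3.23, −1.79] and −0.16 [−0.84, 0.53]. Ccl3 was lower in 3 types and flat in neutro-biased GMP-like cells.

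In the Lin-/CD11b+ sort, WT and Tet2 KO Ccl3 stood at 214 and 41.0 CPM in basophil-like cells (110 and 31 UMIs), 210.2 and 34.3 in Clec4a-high monocyte-like cells (99 and 76 UMIs) and 70.2 and 21.9 in Clec4a-low monocyte-like cells (190 and 79 UMIs). It was 48.7 and 20.8 CPM in HSPC-like (98 and 80 UMIs), 32.1 and 12.9 in mono-biased GMP-like (144 and 74 UMIs) and 19.4 and 4.39 in pDC-like cells (33 and 12 UMIs). Basophil-like and Clec4a-high monocyte-like cells held the highest levels in both genotypes and did not differ from each other. The log2 ratios, in that order of types, were −2.38 [−3.01, −1.79], −2.61 [−3.06, −2.17], −1.68 [−2.08, −1.29], −1.23 [−1.67, −0.79], −1.31 [−1.74, −0.90] and −2.15 [−3.23, −1.16]. Every one of these intervals lay below 0.

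The other compared types of that sort gave no clear ratio for Ccl3. It was 12.8 and 18.0 CPM in neutrophil-like cells (log2 0.50 [−0.37, 1.40]), 2.83 and 4.99 in neutro-biased GMP-like cells (0.82 [−0.47, 2.19]) and 7.69 and 4.68 in plasma-like cells (−0.72 [−1.93, 0.43]). These 3 intervals all held 0, also where the fold was passed. In both monocyte gates together Ccl3 was 90.9 and 26.7 CPM, a log2 ratio of −1.77 [−2.06, −1.48].

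Fewer Tet2 KO cells held a Ccl3 UMI in the basophil-like and monocyte-like gates, but not in neutrophil-like cells. The share was 30.2% and 7.69% in basophil-like cells from the GMP sort, 32.2% and 13.4% in those of the Lin-/CD11b+ sort, 45.3% and 16.2% in Clec4a-high and 28.4% and 13% in Clec4a-low monocyte-like cells. Thinned to 5000 UMIs per cell, these shares were 24.0% and 3.42%, 30.5% and 9.76%, 42.2% and 11.8%, and 20.6% and 7.67%. The gap between genotypes stayed after depth was made equal. In plasma-like cells of the Lin-/CD11b+ libraries, read as a reference for free RNA, the share was 5.81% and 3.45%. Thinned, it was 2.58% and 2.30%, at median depths of 15043 and 12736.5 UMIs. Of their Ccl3 UMIs, 1 of 19 and 5 of 11 were in cells that met more than 1 lineage gate. How much of the rest was free RNA was not tested. The GMP libraries held no plasma-like cells, so the plasma-like share says nothing of Ccl3 free in them.

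A few cells held much of what Ccl3 remained. In HSPC-like cells from Lin-/CD11b+, the 3 top cells held 26.5% of Ccl3 UMIs in WT and 57.5% in Tet2 KO, where 1 cell had 32 of the 80 UMIs. For basophil-like cells the 3 top cells held 34.0% and 71.4% in the GMP sort (103 and 21 UMIs). In the Lin-/CD11b+ sort they held 36.4% and 51.6% (110 and 31 UMIs). Such a share tends to be larger where UMIs are fewer, so these pairs cannot show whether the spread of Ccl3 changed. In mono-biased GMP-like cells from the GMP sort the share was lower, at 12% and 13.6% of 200 and 213 UMIs.

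**Figure D2:**
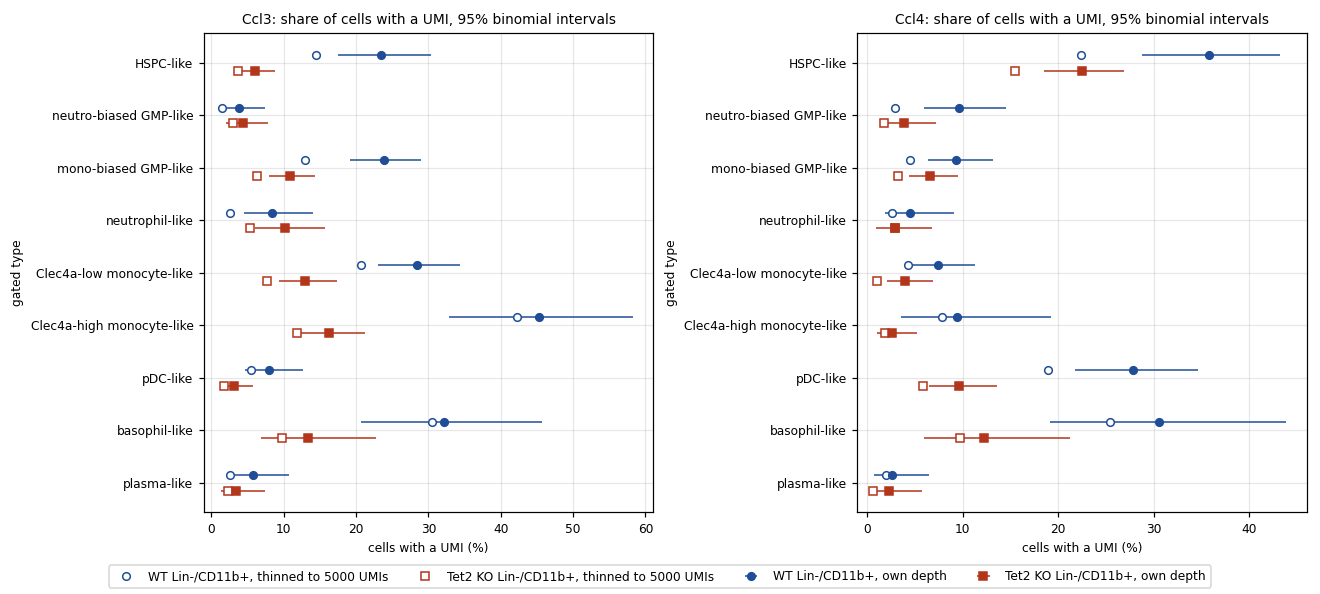
Percent of cells with a Ccl3 UMI (left) and a Ccl4 UMI (right) in 9 types of the Lin-/CD11b+ libraries; filled symbols are cells at their own depth with 95% binomial intervals, open symbols are cells thinned to 5000 UMIs. In basophil-like cells the WT share of Ccl3 at own depth is 32.2% and the Tet2 KO share 13.4%; thinning lowers both and keeps their order.

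Ccl4 in the GMP sort was 145 and 2.91 CPM in basophil-like cells (175 and 4 UMIs), 27.7 and 1.71 in HSPC-like cells (37 and 2 UMIs), 8.59 and 4.36 in mono-biased GMP-like cells (85 and 86 UMIs) and 5.86 and 3.68 in neutro-biased GMP-like cells (54 and 57 UMIs). WT levels fell in that order, each step beyond counting error, while Tet2 KO levels did not differ between neighbours. The log2 ratios were −5.63 [−7.53, −4.25], −4.01 [−7.11, −2.06], −0.98 [−1.43, −0.53] and −0.67 [−1.23, −0.11]. The ratio in basophil-like cells set 175 UMIs, 61 of them in 1 cell, against 4.

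In the Lin-/CD11b+ sort Ccl4 was 163 and 19.9 CPM in basophil-like cells (84 and 15 UMIs), 80.0 and 36.9 in HSPC-like cells (161 and 142 UMIs), 73.0 and 15.4 in pDC-like cells (124 and 42 UMIs) and 11.4 and 8.03 in mono-biased GMP-like cells (51 and 46 UMIs). In the monocyte gates it was 23.4 and 4.52 CPM when Clec4a-high (11 and 10 UMIs) and 10.3 and 3.89 when Clec4a-low (28 and 14 UMIs). Basophil-like cells were highest in WT; in Tet2 KO, HSPC-like cells were above basophil-like cells and level with T/NK-like cells (46.7 CPM). The log2 ratios were −3.04 [−3.94, −2.24], −1.12 [−1.45, −0.78], −2.25 [−2.79, −1.73], −0.50 [−1.11, 0.10], −2.37 [−3.76, −0.995] and −1.41 [−2.45, −0.44]. Of these 6 types, mono-biased GMP-like cells alone had no call, and neutrophil-like (10 and 8 UMIs) and plasma-like cells (5 and 9 UMIs) fell under 20 Ccl4 UMIs. Neutro-biased GMP-like cells (26 and 12 UMIs) were called lower at −1.03 [−2.15, 0.01], an interval that held 0.

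Shares of cells with a Ccl4 UMI moved with the levels. They were 30.2% and 3.42% in basophil-like cells from the GMP sort (thinned 20.8% and 2.56%), 30.5% and 12.2% in those of the Lin-/CD11b+ sort (thinned 25.4% and 9.76%), 35.8% and 22.5% in HSPC-like cells (thinned 22.3% and 15.5%) and 27.9% and 9.62% in pDC-like cells (thinned 18.9% and 5.84%). Tet2 KO was lower in each, before and after thinning. The plasma-like reference stood at 2.58% and 2.30%, thinned 1.94% and 0.575%. Of its Ccl4 UMIs, 2 of 5 and 7 of 9 were in cells that met more than 1 lineage gate.

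**Figure D3:**
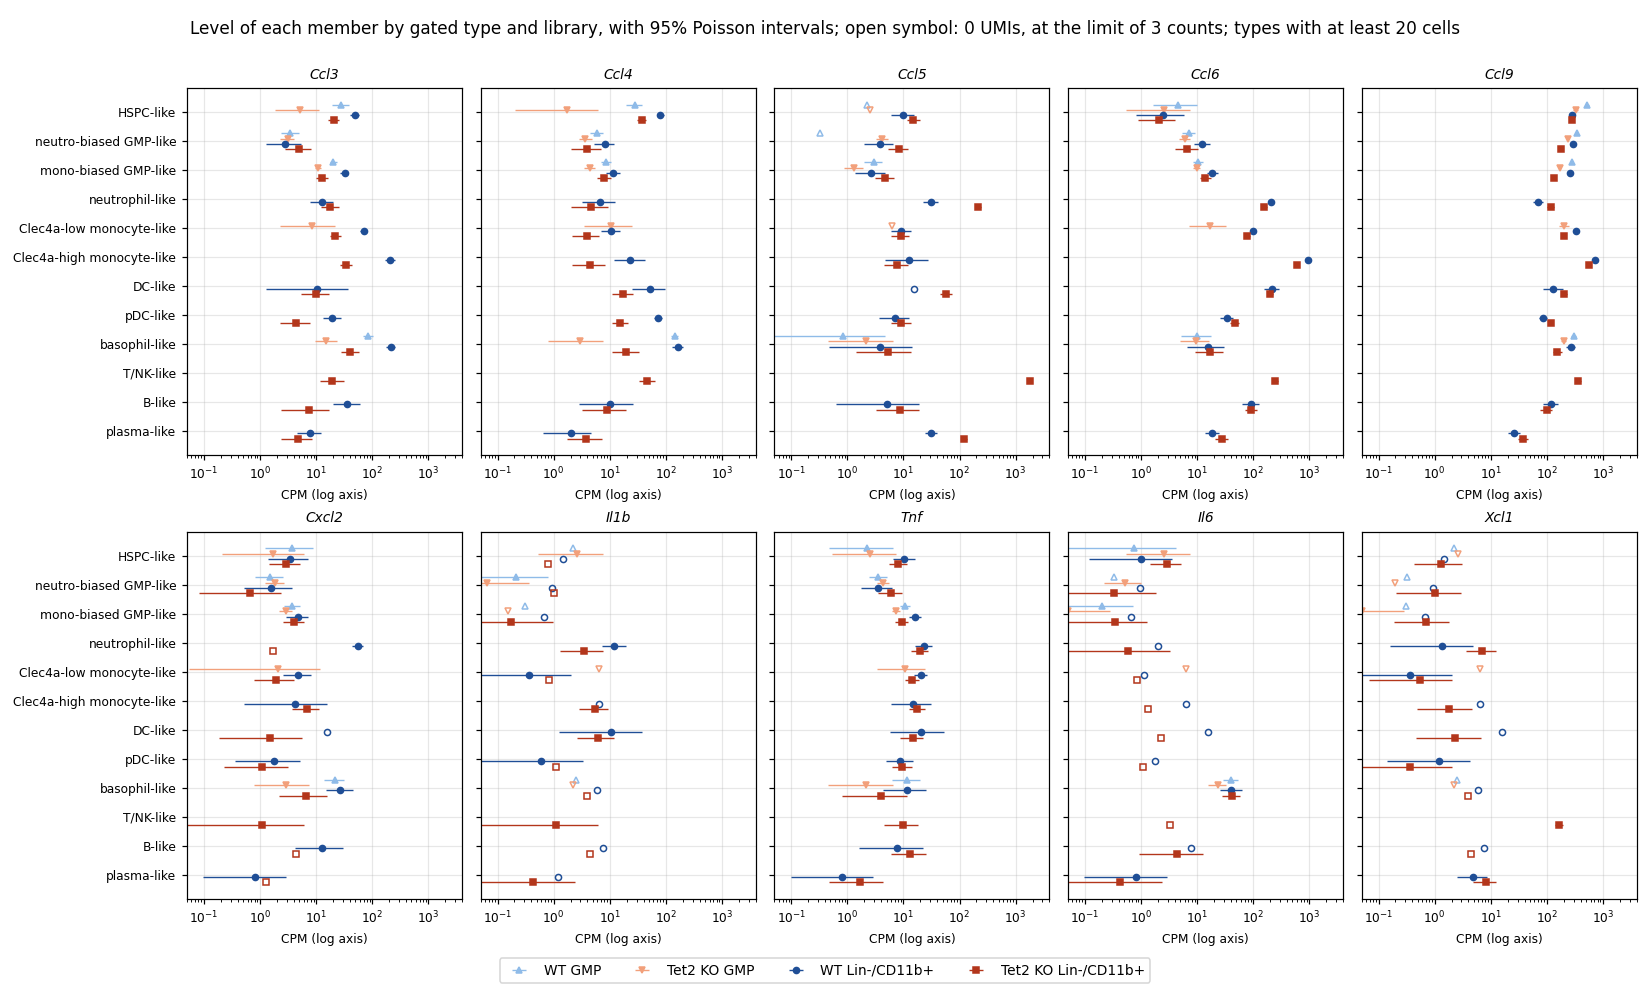
CPM of each of the 10 members (panels, log axis) by cell type in the 4 libraries, with 95% Poisson intervals; an open symbol marks 0 UMIs, drawn at a floor of 3 counts, and types with under 20 cells are left out. For Ccl4 in basophil-like cells from the GMP sort, WT lies at 145 CPM and Tet2 KO at 2.91.

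Ccl6 and Ccl9 encode chemokines of the mouse that keep no direct human counterpart and are made by resting myeloid cells. Ccl6 lies on the minus strand of chromosome 11 at 83587886-83593087 and Ccl9 at 83572917-83578636, 9.25 kb apart. Ccl9 is shown as the broadest member. Its 250 upstream bases, chr11:83578637-83578886, minus strand, were:
Ccl9: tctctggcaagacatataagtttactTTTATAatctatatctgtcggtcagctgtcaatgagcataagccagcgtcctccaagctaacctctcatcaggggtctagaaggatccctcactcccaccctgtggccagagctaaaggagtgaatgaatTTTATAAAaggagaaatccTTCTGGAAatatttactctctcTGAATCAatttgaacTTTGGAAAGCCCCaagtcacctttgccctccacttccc
Capitals mark matches to TATA box (TATAAA) 224 to 219, 94 to 89 and 92 to 87 bases before the start, the latter pair overlapping, with the match at 92 to 87 read on the gene's own strand. They also mark C/EBP 75 to 68, AP-1 (TGANTCA) 53 to 47, C/EBP 38 to 31 and NF-kB 34 to 26, where the latter 2 overlap. The same window of Ccl6 held no match to any motif searched, and the longest run shared by the Ccl6 and Ccl9 windows was 13 bases.

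Ccl9 was the broadest of the members in the GMP sort, with 7247 and 8798 UMIs. It stood at 516 and 326 CPM in HSPC-like, 337 and 233 in neutro-biased GMP-like, 275 and 169.8 in mono-biased GMP-like and 301 and 198 in basophil-like cells. HSPC-like cells were highest in both genotypes, followed by neutro-biased GMP-like cells, and WT mono-biased GMP-like and basophil-like cells did not differ. The log2 ratios were −0.66 [−0.84, −0.48], −0.53 [−0.60, −0.46], −0.69 [−0.77, −0.62] and −0.60 [−0.83, −0.37]. All 4 lay close together, on either side of the 1.5-fold limit.

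In the Lin-/CD11b+ sort (5129 and 6684 Ccl9 UMIs), Ccl9 was 711 and 559.7 CPM in Clec4a-high and 329 and 198 in Clec4a-low monocyte-like cells, 289 and 175 in neutro-biased GMP-like, 255 and 136 in mono-biased GMP-like and 264 and 154 in basophil-like cells. Clec4a-high monocyte-like cells were highest in both genotypes. Log2 ratios were −0.35 [−0.52, −0.17], −0.73 [−0.87, −0.59], −0.72 [−0.88, −0.57], −0.91 [−1.05, −0.78] and −0.78 [−1.15, −0.42]. Ccl9 was lower in all 5, and called in all but the Clec4a-high gate.

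Ccl9 took another direction in 4 types of that sort. HSPC-like cells stood at 274 and 280.2 CPM (log2 0.03 [−0.12, 0.18]), unlike those of the GMP sort. Neutrophil-like cells rose from 69.8 to 118 CPM (0.76 [0.41, 1.11]), pDC-like cells from 86.0 to 117 (0.45 [0.16, 0.74]) and plasma-like cells from 26.3 to 37.9 (0.53 [0.05, 1.01]). Only neutrophil-like cells passed the fold for Ccl9. Monocyte markers rose in the same cells, the Clec4a1, Clec4a3 and Wfdc17 sum from 203 to 543 CPM and the Fn1 and F13a1 sum from 55.04 to 197 CPM. The whole monocyte list, 12 of 12 genes found and Ly6c2 highest, went from 2632 to 3630 CPM. The basophil list went from 148 to 477 CPM (6 and 8 of 8 found) and the dendritic list from 516 to 648 CPM (8 and 9 of 11). Their part in the Ccl9 rise was not tested. The share of cells with a Ccl9 UMI there was 16.9% and 25.6%, thinned 14.3% and 20.2%, at like median depths of 8877.5 and 8956 UMIs. Plasma-like cells, the reference for free RNA, had 9.68% and 14.4%. Of their Ccl9 UMIs, 16 of 65 and 20 of 89 were in cells that met more than 1 lineage gate.

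In progenitors most cells held Ccl9. The share was 95.8% and 86.6% in neutro-biased GMP-like cells from the GMP sort, thinned 75.2% and 59.9%, and 90.8% and 77.0% in mono-biased GMP-like cells, thinned 67.0% and 49.1%. Tet2 KO shares were lower before and after thinning. Ccl9 was spread over many cells: the 279, 533, 275 and 385 cells with most UMIs held 50% of it in the WT GMP, Tet2 KO GMP, WT Lin-/CD11b+ and Tet2 KO Lin-/CD11b+ libraries.

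In the Lin-/CD11b+ sort the level of Ccl6 was highest in Clec4a-high monocyte-like cells, at 945 and 615 CPM. They held 445 of the 1489 Ccl6 UMIs of the WT library and 1361 of the 2913 of the Tet2 KO library. Ccl6 stood at 214 and 196 CPM in DC-like cells (41 and 257 UMIs), 205 and 158 in neutrophil-like cells (306 and 272 UMIs) and 99.4 and 77.2 in Clec4a-low monocyte-like cells (269 and 278 UMIs). In WT the DC-like and neutrophil-like cells did not differ, while in Tet2 KO the order was T/NK-like (248 CPM), DC-like and then neutrophil-like cells. Log2 ratios were −0.62 [−0.78, −0.46], −0.38 [−0.62, −0.14] and −0.36 [−0.61, −0.12] in the Clec4a-high, neutrophil-like and Clec4a-low types, in that order. Ccl6 was lower in each, and called among these in the Clec4a-high gate.

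The share of Clec4a-high monocyte-like cells with a Ccl6 UMI hardly differed, 84.4% and 81.9%, thinned 78.1% and 77.9%. With both monocyte gates summed, Ccl6 was instead higher, 225 and 282 CPM (log2 0.33 [0.20, 0.46]); 64 of 321 WT and 271 of 571 Tet2 KO monocyte-like cells were in the Clec4a-high gate. Ccl6 was 12.3 and 6.66 CPM in neutro-biased GMP-like cells from Lin-/CD11b+ (39 and 20 UMIs), a log2 ratio of −0.88 [−1.74, −0.07]. In the GMP sort it was 7.05 and 5.999 CPM in neutro-biased and 10.4 and 9.94 in mono-biased GMP-like cells, with log2 ratios of −0.23 and −0.07. Ccl6 was thus flat in that sort. In plasma-like cells Ccl6 had a UMI in 5.81% and 10.9% of cells.

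Ccl5 and Xcl1 are chemokines of activated T and NK cells. Ccl5 lies at 83525778-83530518 on the minus strand of chromosome 11 and Xcl1 at 164931644-164935522 on the minus strand of chromosome 1. In T/NK-like cells from Lin-/CD11b+, Ccl5 stood at 2072 CPM in WT (451 UMIs, 78.9% of 19 cells, thinned 73.7%) and 1837 CPM in Tet2 KO (1692 UMIs, 77.3% of 88 cells, thinned 73.9%). These cells held 58.3% and 63.1% of the library's Ccl5 UMIs. Xcl1 gave 225 CPM (49 UMIs, 68.4% of cells) and 167 CPM (154 UMIs, 44 of 88 cells) in the same gate, 74.2% and 69.7% of its library total. The GMP libraries had 0 and 1 Xcl1 UMI. Both genes were highest by far in T/NK-like cells, in either genotype.

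The T/NK-like gate in Tet2 KO also held RNA of other types, with Ccl6 at 248 and Ccl9 at 359 CPM. There the T cell list summed to 1248 CPM (10 of 10 genes found, Cd3g most) and the NK list to 1425 CPM (12 of 12, Nkg7 most), beside 6220 CPM of the monocyte list (12 of 12, Ly6c2 most). Of the WT gate's Xcl1 UMIs, 3 cells held 65.3%, and of the Tet2 KO gate's 22.7%. Ccl5 was less concentrated, with 34.6% and 18.0% in 3 cells.

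In neutrophil-like and plasma-like cells Ccl5 rested on few cells. Neutrophil-like cells rose from 30.9 to 215 CPM (46 and 371 UMIs; log2 2.80 [2.36, 3.28]), and 43 and 354 of those UMIs were in the 4 and 11 cells that also met another lineage's gate. Without them Ccl5 stood at 2.09 and 10.7 CPM. The top cell alone held 93.5% in WT and 73.6% in Tet2 KO, with 23 and 45 UMIs of T/NK markers. Plasma-like cells rose from 31.2 to 119 CPM (77 and 279 UMIs; 1.93 [1.56, 2.31]), of which 70 and 257 UMIs were in the 9 and 14 such cells. There 3.07 and 10.3 CPM remained. Xcl1 in plasma-like cells, 4.86 and 8.09 CPM (12 and 19 UMIs; 0.74 [−0.38, 1.91]), had 11 and 18 UMIs in such cells.

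**Figure D4:**
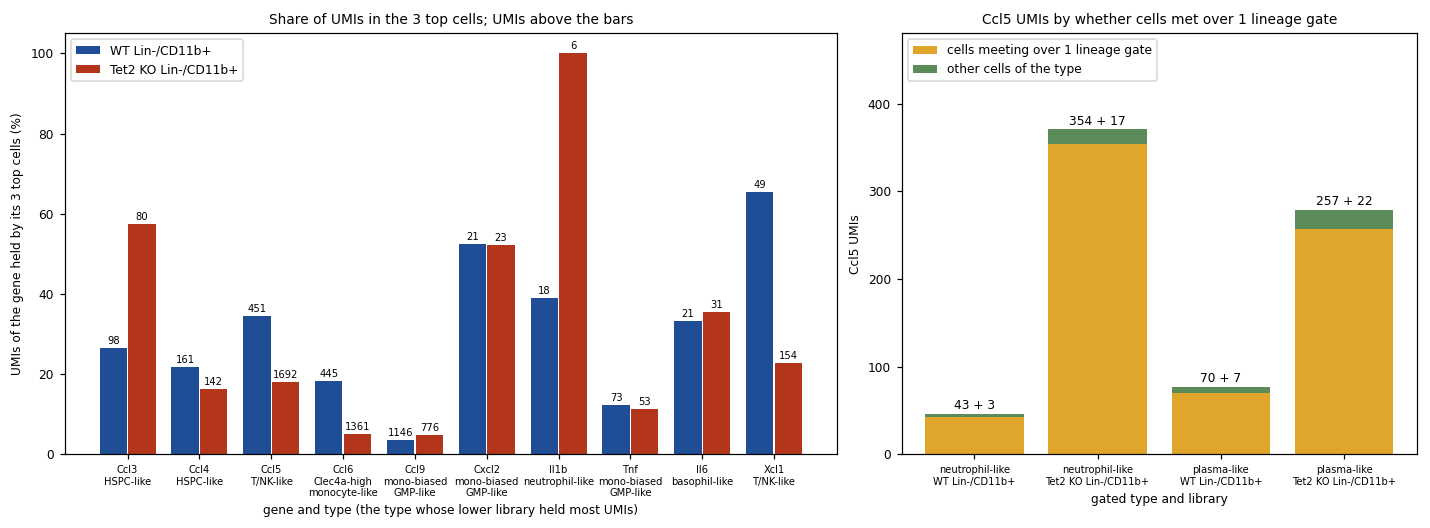
Left: percent of a member's UMIs held by its 3 top cells in the WT and Tet2 KO Lin-/CD11b+ libraries, in the type where the library with fewer UMIs held most; UMIs stand above the bars. Right: Ccl5 UMIs in neutrophil-like and plasma-like cells, split into cells meeting the gate of more than 1 lineage and all others. In Tet2 KO neutrophil-like cells 354 UMIs are in the former and 17 in the latter.

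In Tet2 KO DC-like cells Ccl5 stood at 58.04 CPM (76 UMIs in 20 of 157 cells), with 0 UMIs in the 29 WT ones, too few to compare. The remaining types held less. Among neutro-biased GMP-like cells it was 0 UMIs in the WT GMP library and 65 in Tet2 KO (4.19 CPM), at least 12.9-fold higher by the floor of 3 counts. Of those, 45 were in 1 cell with no T/NK marker UMI. In mono-biased GMP-like cells from the same sort it was 2.93 and 1.32 CPM (29 and 26 UMIs; −1.15 [−1.97, −0.34]), with 86.2% and 76.9% in 3 cells. Both calls therefore described single cells more than the type. In the Lin-/CD11b+ sort Ccl5 was 3.77 and 8.32 CPM in neutro-biased GMP-like cells (1.14 [0.10, 2.27]) and 2.675 and 4.715 in mono-biased GMP-like cells (0.82 [−0.21, 1.93]), as the library total rose from 34.1 to 78.8 CPM. HSPC-like cells stood at 9.94 and 15.1 CPM (0.60) and Clec4a-high monocyte-like cells at 12.7 and 7.68 (−0.73 [−2.14, 0.90]). How much of this was free RNA was not tested.

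Cxcl2 and Il1b are signals of activated neutrophils and monocytes, the former an attractant of neutrophils and the latter the secreted form of interleukin 1. Cxcl2 lies at 90903899-90905938 on the plus strand of chromosome 5 and Il1b at 129364569-129371164 on the minus strand of chromosome 2. Cxcl2 is shown for its 0 UMIs in Tet2 KO neutrophil-like cells. Its 250 upstream bases, chr5:90903649-90903898, plus strand, were:
Cxcl2: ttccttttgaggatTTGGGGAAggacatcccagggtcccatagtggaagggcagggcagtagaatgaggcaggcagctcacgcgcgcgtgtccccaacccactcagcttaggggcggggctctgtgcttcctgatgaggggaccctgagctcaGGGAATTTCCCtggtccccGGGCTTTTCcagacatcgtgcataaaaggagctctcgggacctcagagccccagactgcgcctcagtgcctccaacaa
Capitals mark a C/EBP match 236 to 229 bases before the start and NF-kB matches (GGGAANNTC, GGGNNTTTC) 97 to 89, overlapping 1 on the opposite strand at 95 to 87, and 78 to 70. No AP-1, PU.1, TATA or interferon-response match was present.

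Cxcl2 gave 83 UMIs in WT neutrophil-like cells (55.7 CPM [44.4, 69.1]) and 0 in Tet2 KO. That was at least 32.0-fold lower with 0 set to the floor of 3 counts; the interval, which allows more counts than the floor, reached a log2 ratio of −4.67. In WT, 29 neutrophil-like cells (18.8%, thinned 12.99%) held Cxcl2, and 3 of them 38.6% of the UMIs, so the signal was not from 1 cell. This type held 48.8% of the Cxcl2 UMIs of the WT library and was its highest type. Median depth was nearly the same, 8877.5 and 8956 UMIs.

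Il1b in the same cells was 12.1 and 3.48 CPM (18 and 6 UMIs; −1.79 [−3.42, −0.40]), in 12 of 154 and 3 of 168 cells. It was also below 30 UMIs in each whole library, with 6, 4, 25 and 29. In Clec4a-high monocyte-like cells it had 0 and 12 UMIs (5.42 CPM in Tet2 KO). Its levels were thus read with few counts everywhere.

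The neutrophil-like cells of the genotypes were not alike in maturity markers. Retnlg, of mature neutrophils, stood at 3543 and 1169 CPM and Cxcr2 at 48.3 and 25.5, while Elane, of immature cells, stood at 316 and 965 and Mpo at 85.9 and 264. The comparison was therefore repeated with cells holding a Retnlg UMI, 94 in WT and 74 in Tet2 KO. There Cxcl2 had 65 and 0 UMIs (74.99 CPM in WT, 26.6% of cells), Il1b 20.8 and 7.43 CPM, Ccl6 308 and 207 and Ccl9 95.8 and 161. Ccl6 and Ccl9 kept their direction. The subset cannot decide this for Cxcl2, which had 0 UMIs in all Tet2 KO neutrophil-like cells. Nor can it for Il1b, whose UMIs all lay in cells with a Retnlg UMI. Tnf stood there at 25.4 and 12.4 CPM (22 and 10 UMIs), past the fold, and Ccl3 at 14.999 and 12.4 CPM (13 and 10 UMIs), against its direction in all neutrophil-like cells. The part of maturity in the differences was not tested. Among the 60 WT and 94 Tet2 KO cells without Retnlg, Cxcl2 had 18 and 0 UMIs, Il1b 0 and 0, and Ccl6 was higher in Tet2 KO, 62.6 and 115 CPM. Tnf was 19.3 and 26.2 CPM and Ccl3 9.63 and 22.95 CPM there, higher in Tet2 KO with few UMIs. A Ccl3 UMI was in 8.51% and 9.46% of cells with a Retnlg UMI and in 8.33% and 10.6% of those without. Ccl5 stood at 53.1 and 87.9 CPM in cells with a Retnlg UMI (46 and 71 UMIs). It had 0 and 300 UMIs in those without (328 CPM in Tet2 KO).

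**Figure D5:**
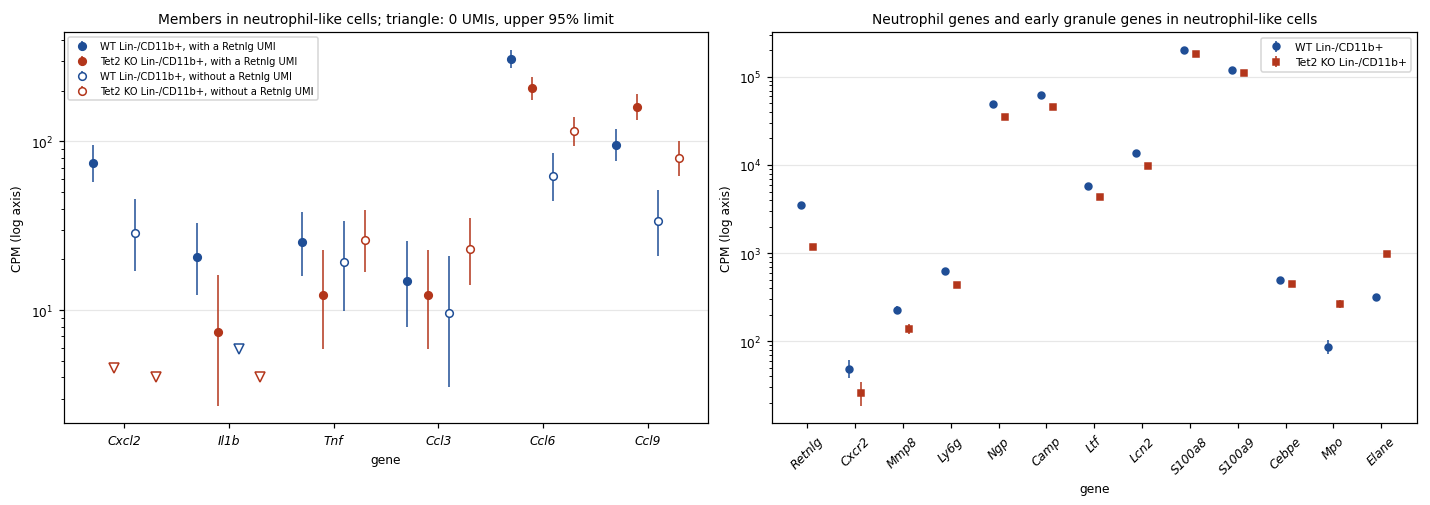
Left: CPM of Cxcl2, Il1b, Tnf, Ccl3, Ccl6 and Ccl9 in neutrophil-like cells of the Lin-/CD11b+ libraries with and without a Retnlg UMI, by genotype. Right: CPM (log axis) of neutrophil genes and of Cebpe, Mpo and Elane in neutrophil-like cells, with WT and Tet2 KO side by side for each gene. Cxcl2 is seen in WT cells of both kinds, 74.99 and 28.9 CPM, and in no Tet2 KO cell. Retnlg is lower in Tet2 KO than in WT.

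Elsewhere Cxcl2 was sparse. Basophil-like cells from the GMP sort had 21.5 and 2.91 CPM (26 and 4 UMIs; −2.88 [−4.86, −1.36]), with 69.2% of the WT UMIs in 3 cells. Those of the Lin-/CD11b+ sort, under 20 UMIs, had 27.2 and 6.62 CPM (14 and 5 UMIs; −2.04 [−3.87, −0.48]). Clec4a-low monocyte-like cells had 4.802 and 1.94 CPM (13 and 7 UMIs; −1.30 [−2.87, 0.13]). Clec4a-high monocyte-like cells, under 20 UMIs, went the other way at 4.25 and 6.78 CPM (2 and 15 UMIs; 0.67), and with both gates summed Cxcl2 was not called (−0.32). Nor was it called in mono-biased GMP-like cells of either sort (−0.37 and −0.22) or in neutro-biased ones of the GMP sort (0.30). The call of lower Cxcl2 in basophil-like cells thus rests on the GMP sort, and in the other sort 4 of the 5 Tet2 KO UMIs were in 1 cell.

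Tnf and Il6 are the cytokines of the group with the widest action, the former released within minutes by macrophages and the latter a driver of the acute-phase response. Tnf lies at 35199367-35202007 on the minus strand of chromosome 17 and Il6 at 30013114-30019975 on the plus strand of chromosome 5. Il6 is shown as a member highest in the same type in all 4 libraries. Its 250 upstream bases, chr5:30012864-30013113, plus strand, were:
Il6: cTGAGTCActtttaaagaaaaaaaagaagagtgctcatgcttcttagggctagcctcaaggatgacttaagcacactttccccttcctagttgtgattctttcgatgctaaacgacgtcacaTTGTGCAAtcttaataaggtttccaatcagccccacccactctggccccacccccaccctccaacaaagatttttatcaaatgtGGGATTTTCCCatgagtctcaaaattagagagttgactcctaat
Capitals mark AP-1 249 to 243, C/EBP 128 to 121 and NF-kB 44 to 36 bases before the start, the last overlapping a match on the opposite strand at 42 to 34.

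Tnf was low and spread out, with 158, 241, 284 and 351 UMIs per library in the order WT GMP, Tet2 KO GMP, WT Lin-/CD11b+ and Tet2 KO Lin-/CD11b+. The 3 top cells held 6.96%, 3.32%, 4.23% and 2.85% of them. In mono-biased GMP-like cells Tnf stood at 10.8 and 7.45 CPM in the GMP sort (107 and 147 UMIs) and 16.3 and 9.26 in the Lin-/CD11b+ sort (73 and 53 UMIs). The log2 ratios were −0.54 [−0.91, −0.16] and −0.81 [−1.35, −0.28], lower in both sorts and called in the latter. Mono-biased GMP-like cells were above neutro-biased ones in both GMP libraries; in the Lin-/CD11b+ libraries no neighbouring types differed.

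In neutrophil-like and monocyte-like cells Tnf was not called. It was 22.8 and 19.7 CPM in neutrophil-like (34 and 34 UMIs; −0.21 [−0.94, 0.52]), 20.3 and 14.4 in Clec4a-low (55 and 52 UMIs; −0.49) and 14.9 and 17.6 in Clec4a-high monocyte-like cells (7 and 39 UMIs; 0.25). Basophil-like cells held under 20 Tnf UMIs, with 11.6 and 2.19 CPM in the GMP sort (14 and 3 UMIs; −2.41 [−4.85, −0.56]) and 11.7 and 3.97 in the Lin-/CD11b+ sort (6 and 3 UMIs; −1.55). In neutro-biased GMP-like cells from Lin-/CD11b+ Tnf was called higher at 3.46 and 5.99 CPM, with 11 and 18 UMIs and an interval that held 0 (0.79 [−0.37, 2.02]).

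Il6 was a gene of basophil-like cells in all 4 libraries. It stood there at 39.7 and 23.3 CPM in the GMP sort (48 and 32 UMIs) and 40.8 and 41.0 in the Lin-/CD11b+ sort (21 and 31 UMIs), and at 4.43 CPM or less in every other type. Basophil-like cells were above the next type in each library. They held 90.6% and 56.1% of Il6 UMIs in the GMP libraries and 80.8% and 53.4% in the Lin-/CD11b+ libraries. The share of basophil-like cells with a UMI was 31.2% and 21.4%, then 28.8% and 19.5%, thinned 14.6% and 15.4%, then 18.6% and 12.2%. Log2 ratios were −0.77 [−1.46, −0.09] and 0.01 [−0.84, 0.88], lower in the GMP sort and flat in the other.

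Whether members were found in the same cells was read from thinned counts beside the share expected if they were independent. Ccl6 and Ccl9 shared neutrophil-like cells: 19 WT cells held both (12.3%, against 3.53% if independent) and 29 Tet2 KO cells (17.3% against 6.14%). Of 18 combinations of library and type, 7 lay above independence for this pair. Ccl6 and Cxcl2 were together in 14 WT neutrophil-like cells (9.09% against 3.20%). Ccl3 and Ccl4 lay above it in 1 of 11, mono-biased GMP-like cells from the Tet2 KO GMP library (6 cells, 0.505% against 0.0736%). For that pair the median of observed over independent was 2.15, from few cells in each type, so the intervals were wide. At own depth, mono-biased GMP-like cells of the WT GMP library also lay above, at 2.996% [1.72, 4.82] against 1.48%.

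Likeness over the 29 sums of a library and type with at least 50 cells was read among 10243 genes, without a test. Nearest to Ccl3 was Dusp1 (r 0.81), then Slc41a3 and Tmcc2 (0.77 each), and nearest to Ccl4 were Pgghg (0.80), Rgs1 and Pitpnc1 (0.78 each). Ccl3 and Ccl4 correlated at 0.65. For Cxcl2, Osm (0.87) came before Ier2 and 1700006J14Rik (0.77 each). Ccl6 had Clec4a1, Clec4a3 and Pirb (0.96 each), of which Clec4a1 and Clec4a3 are gate markers, and Ccl9 had Gpx4, Ppt2 and Cpsf3 (0.86 each). For Ccl5, Trbc2 (0.92) and Cd3d (0.90) came before Xcl1, and for Xcl1 Trbc2, Trbc1 and Cd3d (0.98 each). Tnf had G6pdx, Flna and Arhgap9 (0.83 each), while Il1b and Il6 had too few UMIs.

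Ccl5, Ccl9, Ccl6, Ccl3 and Ccl4 lie in 138.9 kb of chromosome 11. From Ccl5 to Ccl9 the gap is 42.4 kb and from Ccl6 to Ccl3 54.8 kb. Ccl5 was highest in T/NK-like, Ccl6 and Ccl9 in Clec4a-high monocyte-like (Lin-/CD11b+ sort) and Ccl3 and Ccl4 in WT basophil-like cells, Ccl3 level there with Clec4a-high monocyte-like cells from Lin-/CD11b+.

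Over 8 members with an upstream entry, an NF-kB match of any of 3 forms was in 4 (Ccl9, Cxcl2, Il6 and Xcl1), beside 6.78% of all 32851 promoters of the same window. By form, all promoters held GGGNNTTTC in 3.72%, GGGAANNTC in 3.50% and GGGAANTTC in 0.907%. AP-1 (TGANTCA) was in 2 (Ccl9 and Il6; 6.75% of promoters), C/EBP (TTNCNNAA) in 6 (Ccl3, Ccl9, Cxcl2, Il1b, Il6 and Tnf; 36.8%), TATA box (TATAAA) in 3 (Ccl9, Il1b and Tnf; 12.4%) and the interferon-response form GAAANNGAA in Ccl3 alone (7.13%). PU.1 (GAGGAAGT) was in 0 (2.44%). Matches were counted on both strands, and a match describes the sequence only.

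The receptors of these members marked other types than the ligands in part. In the Lin-/CD11b+ sort Ccr1, bound by Ccl3, Ccl6 and Ccl9, stood at 40.3 and 56.0 CPM in Clec4a-high monocyte-like cells, 44.7 and 35.7 in basophil-like and 28.2 and 29.0 in neutrophil-like cells. The types highest in WT Ccl3 were thus also those highest in Ccr1. Cxcr2, bound by Cxcl2, was found at 48.3 and 25.5 CPM in neutrophil-like cells, the type with most Cxcl2 in WT, and Xcr1, bound by Xcl1, at 125 and 80.2 CPM in DC-like cells. For Il6, Il6ra was 70.1 and 92.2 CPM in Clec4a-high monocyte-like cells; for Tnf, Tnfrsf1a was 106 and 84.9 and Tnfrsf1b 61.6 and 67.8 CPM there. Il1r2, the decoy receptor of Il1b, was 45.6 and 31.9 CPM in neutrophil-like cells.

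Beside the members, 9 gene lists were read without them. Of the immediate early genes, 8 of 13 that passed the filter were lower and 0 higher in HSPC-like cells from the GMP sort (median log2 −0.93), beside 12.5% and 5.61% of all genes. The counts were 9 lower and 2 higher of 22 in mono-biased GMP-like cells (−0.50, all genes 2.75% and 1.75%) and 7 lower and 1 higher of 14 in basophil-like cells (−0.62, all genes 9.43% and 7.61%). In basophil-like cells from Lin-/CD11b+ it was 7 lower and 0 higher of 13 (−0.65, all genes 10.7% and 12.4%) and in neutrophil-like cells 7 and 0 of 15 (−0.51, all genes 4.1% and 20.7%). The types of the GMP sort in which Ccl3 and Ccl4 were called lower were thus also types with lower immediate early genes. In neutro-biased GMP-like cells, where Ccl3 and Ccl4 were not called, 1 of 21 was lower and 2 higher (−0.10, all genes 3.06% and 2.21%). In HSPC-like cells from Lin-/CD11b+, where Ccl3 and Ccl4 were called lower, 3 of 19 immediate early genes were lower and 2 higher (−0.19, all genes 3.98% and 7.84%). Neutro-biased GMP-like cells of that sort had 0 lower and 3 higher of 16 (0.12, all genes 3.98% and 6.21%). Mono-biased ones had 4 lower and 2 higher of 22 (−0.11, all genes 3.05% and 5.02%).

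In the summed monocyte gates the lists are set beside 3.83% of all genes lower, 7.87% higher and an all-gene median of 0.03. Immediate early genes had 2 lower and 3 higher of 21 (median −0.13), with Fos at −0.999 [−1.07, −0.93] and Dusp1 at −0.77 among the lowest and Ier5 (1.40), Hspa1b (1.45) and Hspa1a (1.19) the highest. The NF-kB subunits and feedback genes had 0 lower and 9 higher of 25 (0.37), led by Tnip3 (3.52, with 1 and 21 UMIs), Cd40 (1.96) and Clec4e (1.52). Ccl3 and Ccl4 were called lower in these cells, where 9 of 25 genes of that list were called higher. The difference between them was not tested. In basophil-like cells the same list had 6 of 17 lower in the GMP sort (−0.40, all genes 9.43%) and 5 of 11 in the Lin-/CD11b+ sort (−0.22, all genes 10.7%), with 1 higher in each.

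In the same summed gates, CC chemokine ligands had 1 lower of 3 (Ccl2, −0.74; median −0.54), and the CXC and other ligands 0 of 1 (Cxcl10, 0.44). Of the chemokine receptors, Ccr1 (0.80) was among those called higher and Ccr2 (0.54) was not called in the sum, and in either gate alone 0 of the 4 that passed were called. Interleukin and TNF family cytokines had 1 lower (Osm, −1.39) and 3 higher of 12, Ltb (2.59) and Il18 (1.59) among them. Receptors and signalling of IL-1, TNF and IL-6 had 3 higher of 22, Socs3 (1.87) and Tnfrsf1b (0.66) among them, and processing and release of IL-1 and TNF 2 higher of 11, Txnip (0.85) and Casp4 (0.79). Genes of cytokine mRNA decay had 2 higher of 10, Zfp36l1 (2.20) and Rc3h2 (0.89), with Zfp36 at −0.33. These sums hold more Clec4a-high cells in Tet2 KO, as for Ccl6, and each gate alone gave other counts. Immediate early genes had 4 lower and 3 higher of 20 in the Clec4a-low gate (median −0.15) and 6 lower and 3 higher of 18 in the Clec4a-high gate (−0.46), and NF-kB genes 1 lower and 4 higher of 23 (0.17) and 0 lower and 11 higher of 23 (0.20). Cxcl10, the 1 gene of the CXC list that passed, was higher in the Clec4a-low gate (10 and 28 UMIs) and lower in the Clec4a-high gate (21 and 49 UMIs), at 0.90 and −0.98 on CPM plus 1. The all-gene shares of these gates are those given above for Ccl3 and the other members.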

How the data were processed

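UMI counts per cell, as deposited by the authors, were used with the cell table for library and sort. The submitters' processing notes name Cell Ranger 3.1.0, mm10 and Seurat; the sources do not give the gene annotation. The labels and the methods name Chromium kit v2, while the series design text names v3.1. Cell numbers listed in the supplement stand the other way round for the Tet2 KO GMP and WT Lin-/CD11b+ libraries, and the deposited cell table was followed. The study's filter of 200 genes, 5000 UMIs and 5% mitochondrial UMIs was met for UMIs, but 116, 180, 44 and 73 cells of the WT GMP, Tet2 KO GMP, WT Lin-/CD11b+ and Tet2 KO Lin-/CD11b+ libraries held 5% or more, and all cells were kept.

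Cells were given types by summed markers, with thresholds set after marker levels were seen. CPM was a member's UMIs over all UMIs of a type and library; intervals were exact Poisson, binomial or conditional binomial. Cells were thinned without replacement to 5000 UMIs. Types needed 50 cells per library for a comparison, and a count of 0 was set to a floor of 3 for bounds. Leiden clusters used 2000 variable genes, 30 components, 30 neighbours and resolution 0.8. Named were all 10 members, up to 3 list genes at each end of the monocyte ratio, and the 3 genes with the highest Pearson correlation of log2(CPM + 10) to each member with at least 200 UMIs; other genes named served a statement and were chosen after their values were seen. The lists, 199 genes of which 13 were not in the matrix, were CC ligands, CXC and other ligands, chemokine receptors, interleukin and TNF family cytokines, receptors and signalling of IL-1, TNF and IL-6, processing and release, NF-kB subunits and feedback genes, cytokine mRNA decay and immediate early genes. Members and lists were chosen with earlier results of these data known.

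Software was Python 3.11.15, numpy 2.4.6, scipy 1.17.1, pandas 2.3.3, scanpy 1.11.5, anndata 0.12.19, igraph 0.11.9, scikit-learn 1.9.0, matplotlib 3.10.9, R 4.3.3 and edgeR 4.0.16. The code was tested on simulated data with known ratios.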

Additional observations from a re-analysis of the deposited data

Results flagged for a closer look

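Ccl5 went in opposite directions between types: the log2 ratio of CPM plus 1 was 2.76 in neutrophil-like cells from Lin-/CD11b+ and −0.76 in mono-biased GMP-like cells from the GMP sort. Ccl5 and Ccl9 were the members called in both directions with counting intervals apart from 0 on each side, and their highest and lowest such values are given. Most Ccl5 UMIs in the neutrophil-like cells were in the 4 WT and 11 Tet2 KO cells that also met another lineage's gate, and those in the mono-biased GMP-like cells were in few cells too. The difference between these values was not tested.

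Ccl9 stood at 0.75 in neutrophil-like cells and −0.91 in mono-biased GMP-like cells, both of the Lin-/CD11b+ sort, on the same scale. Unlike Ccl5, most Ccl9 UMIs of the neutrophil-like cells, 99 of 104 in WT and 184 of 203 in Tet2 KO, were outside cells that met more than 1 lineage gate. Monocyte markers were also higher there in Tet2 KO, the Clec4a1, Clec4a3 and Wfdc17 sum at 203 CPM in WT and 543 CPM in Tet2 KO. This difference was not tested either.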

How the results depend on the processing

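Of 45 calls, 41 stayed past the fold without cells of 5% or more mitochondrial UMIs, 42 without the top 5% of Scrublet scores (450 cells), 43 with TMM factors, 39 without the 3 top cells, 42 as a mean over cells, 33 with Leiden clusters and 27 with an offset of 10 CPM; read from the sort with more cells of the type, 9 of 12 did so in the other sort. The 36 lower pairs ranged from 24 (offset of 10 CPM) to 45 (no low-count filter). Among those within the fold at that offset were Ccl3 and Ccl4 in mono-biased GMP-like and Ccl9 in basophil-like cells of the GMP sort. The 9 higher pairs moved to 3 with the offset, which shrinks ratios of low levels by construction, and to 22 without the filter, where more pairs are read. In the 4 types found in both sorts, the higher pairs numbered 1 in the sort with more cells and 4 in the other. Signs reversed in 3 called ratios: Ccl5 in mono-biased GMP-like cells (0.64 in the other sort), Il6 in basophil-like cells (0.0079 in the other sort) and Ccl3 in neutro-biased GMP-like cells from Lin-/CD11b+ (−0.0050 with Leiden clusters); the cause was not tested. Ccl9 in HSPC-like cells was not called in the sort with more cells (0.03) and lower in the other (−0.66). Of the Lin-/CD11b+ calls in neutro-biased GMP-like cells, Ccl3 (0.65), Ccl4 (−0.88), Ccl6 (−0.79), Ccl9 (−0.72) and Tnf (0.65) were within the fold in the GMP sort, at −0.13, −0.55, −0.20, −0.53 and 0.23. Chosen after seeing the data, raised gate thresholds kept 34 of 38 calls, leaving out cells that met more than 1 lineage gate kept 44 of 45, and neutrophil-like cells with a Retnlg UMI kept 4 of 4. Of those 4, Ccl5 moved from 30.9 and 215 CPM to 53.1 and 87.9 CPM. The Retnlg subset cannot decide on Cxcl2, with 0 UMIs in Tet2 KO, or on Il1b, whose UMIs all lay in it. Levels as means over cells stayed within the interval in 15 of 20 values. No paired analysis was possible because every sample carries the same replicate number, 2, and each group has 1 sample.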
